A study of Homo sapiens with 18 samples.

Results

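The collagen genes are the 44 rows of the deposited count tables whose symbol is COL, a chain number, A and a second number, out of 26485 gene rows. The rule used only the symbol and no measured value. By textbook role the rows comprised 11 fibrillar collagens, 8 basement membrane collagens and 25 other collagens. The cells were WIBR3, a line of human embryonic stem cells (hESC). Both LIS1+/+ and LIS1+/- versions were profiled as hESC and as brain organoids on Day 5 and Day 12, which makes 6 groups of 3 libraries. All groups came from the same line, and LIS1+/- means that 1 of the 2 copies of LIS1 (gene symbol PAFAH1B1), a regulator of the motor protein dynein, was altered. How many LIS1+/- clones were used is not stated in the labels, and the effects of genotype and of clone cannot be told apart. Nothing states that the 3 libraries of a group were separate cultures, so the p-values reflect only how much these libraries vary, which may be technical. The assay, bulk MARS-seq, reads transcript 3' ends, so levels are given in CPM, counts scaled to an equal total in each library with no scaling for length, and are not compared between genes.

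Collagens are secreted or membrane-bound proteins in which 3 chains wind into a triple helix, as copies of a single chain or as mixtures of different ones. Fibrillar collagens, such as types I, II and III, assemble into the fibrils of skin, bone, cartilage and loose connective tissue, and type II is also made by the early neural tube and the notochord. Basement membrane collagens, above all type IV, form the sheet under epithelia and around vessels, and such a sheet also surrounds the neural tube. The remaining collagens coat fibrils, anchor epithelia, form fine networks or span the cell membrane. In the developing head, mesenchyme and meninges derived partly from the neural crest are rich sources of fibrillar collagen, while neural progenitors lie on a basement membrane.

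Gene counts per library ranged from 1425098 to 4501489, and collagens took 0.129% to 0.306% of them. The share of reads set aside as not uniquely aligned was 46.2% to 58.3% in LIS1+/+ hESC, 34.9% to 52.5% in LIS1+/- hESC and 26.5% to 33.7% in the organoids. In how counts leaned on GC content 3 libraries stood apart. These were replicate 3 of LIS1+/+ hESC, replicate 2 of LIS1+/- at Day 5 and replicate 2 of LIS1+/+ at Day 12, with slopes of -0.0192, -0.0264 and -0.0313 log2 units per percent GC against -0.00143 to 0.0154 in the others. Names of the deposited tables carry a different sequencing pool for each stage, so stage and pool cannot be told apart. Stem cell markers summed to 4704 to 4965 CPM in LIS1+/+ hESC, 3610 to 3839 CPM in LIS1+/- hESC and 121 to 251 CPM at Day 12, and markers of neural progenitors to 1083 to 1312 CPM in hESC and 1498 to 3014 CPM at Day 12. PAFAH1B1 itself stood at 84.8, 72.1 and 111 CPM in LIS1+/+ hESC against 61.2, 51.4 and 55.9 CPM in LIS1+/-. At Day 5 it stood at 130, 134 and 152 against 89.0, 105 and 84.3 CPM, and at Day 12 at 147, 218 and 140 against 104, 114 and 76.1 CPM. The LIS1+/- libraries were lower at each stage without overlap, and the difference passed the test at Day 12 (log2 fold change -0.78 ± 0.20 SE, adjusted p = 0.0372) but not in hESC (adjusted p = 0.173) or at Day 5 (adjusted p = 0.148). The Day 12 PAFAH1B1 call passed without LIS1+/+ replicate 3 and did not pass without any 1 of the other 5 Day 12 libraries (-0.91 to -0.55, adjusted p = 0.0522 to 0.292) or without the 3 libraries that stood apart (-0.55, adjusted p = 0.0834). With only the Day 12 libraries fitted it did not pass either (-0.79, adjusted p = 0.155). Here and below the adjusted p comes from edgeR's quasi-likelihood test with Benjamini-Hochberg adjustment over all 12215 tested genes, and a gene passed below 0.05.

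Of the 44 collagens, 29 had enough counts to be tested: 9 fibrillar, 5 of the basement membrane and 15 others. The other 15 fell below the filter on low counts. Among those, 4 had no count in any library (COL19A1, COL28A1, COL4A3 and COL6A5), and the remaining 11 had at most 80 counts over all 18 libraries. Members that passed the filter through the group in which they are high had to differ between groups, so the counts over the 29 describe tested members only.

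In LIS1+/+ cells 21 of the 29 tested collagens changed from hESC to Day 5, 8 of them rising and 13 falling, beside 44.6% of all tested genes (22.9% rising, 21.7% falling). From Day 5 to Day 12 in LIS1+/+, 14 rose and 1 fell, beside 24.5% of all genes (12.7% rising, 11.7% falling). Over the whole course from hESC to Day 12, 14 rose and 7 fell in LIS1+/+, beside 53.1% of all genes (28.1% and 25% by direction). In LIS1+/- cells 7 rose and 14 fell from hESC to Day 5 (43.7% of all genes, 22.4% and 21.4% by direction). Later in LIS1+/-, 10 rose and 3 fell from Day 5 to Day 12 (16.5% of all genes, 8.9% and 7.64% by direction). Between hESC and Day 12, 7 rose and 12 fell in LIS1+/- (52.1% of all genes, 26.7% and 25.4% by direction). The collagens thus had a larger share of falls than all genes in the first step of both genotypes and a larger share of rises in the second step. Median log2 fold changes of the 29 were -0.44 and 0.80 for the 2 successive steps in LIS1+/+, beside 0.06 and 0.02 over all tested genes. In LIS1+/- they were -0.84 and 0.22, beside 0.06 and -0.01.

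Fewer collagens differed between the genotypes. In hESC 2 of the 29 were higher in LIS1+/- and none lower, beside 0.491% of all tested genes in either direction (0.295% higher, 0.196% lower). At Day 5 none was higher and 2 were lower, beside 1.95% of all genes (0.671% higher, 1.28% lower). At Day 12 none was higher and 5 were lower, beside 1.4% of all genes (0.336% higher, 1.06% lower). The 29 had a median log2 difference of 0.41 in hESC, -0.04 at Day 5 and -0.49 at Day 12, beside 0.03, 0.01 and -0.01 over all genes. These genotype counts moved with single libraries: they ranged from 1 to 2 in hESC, from 0 to 1 at Day 5 and from 1 to 7 at Day 12 when each library was left out in turn. The hESC count was 1 without LIS1+/+ replicate 1 or 3 or LIS1+/- replicate 2 or 3. The Day 5 count was 0 without LIS1+/+ replicate 1 or LIS1+/- replicate 1 or 3, and 1 without each of the others. At Day 12 it was 3 without replicate 1 of either genotype, 2 once the second LIS1+/- library was removed and 1 once the third was. Removing LIS1+/+ replicate 2 gave 7 at Day 12, and removing its replicate 3 gave 6. Without the 3 libraries that stood apart, the counts were 2, 2 and 9.

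**Figure D1:**
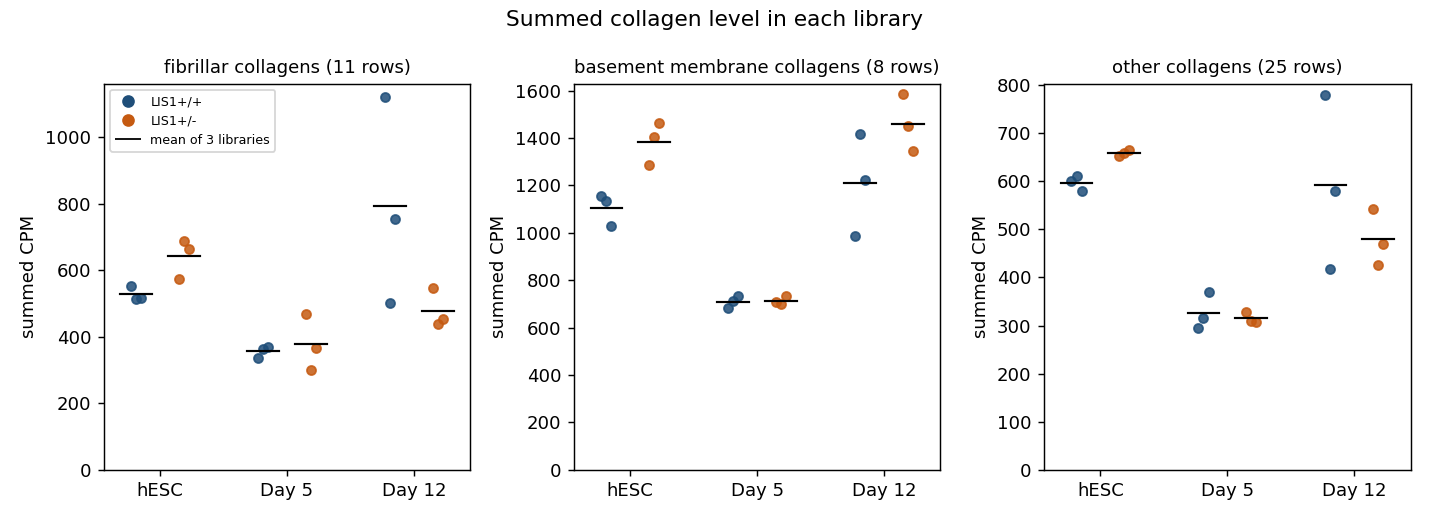
Summed CPM (linear axis from 0) of the fibrillar, basement membrane and other collagens in each library, by stage, with LIS1+/+ in blue, LIS1+/- in orange and a line at the mean of 3 libraries. Basement membrane sums at Day 12 ran from 987 to 1416 CPM in LIS1+/+ and from 1347 to 1585 CPM in LIS1+/-, and fibrillar sums from 502 to 1121 CPM and from 438 to 546 CPM.

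Type IV collagen is encoded by 6 genes that lie in 3 head-to-head pairs, each pair transcribed outwards from a shared promoter region. The promoters of both measured pairs are shown because the genes of one pair rose together and those of the other did not move together. Each line gives the 250 bases before the start of the gene, 5' to 3' on the gene's own strand, from RefSeq on GRCh38.p14, with capitals at matches to 3 short motifs. The CCAAT box was searched as CCAAT. The GC box, bound by SP1, was searched as GGGCGG. The TATA box was searched as TATAAA. Both strands were searched, so the reverse complements are in capitals too, and no 2 matches overlap in these windows.
COL4A5 (chrX:108439588-108439837, plus strand): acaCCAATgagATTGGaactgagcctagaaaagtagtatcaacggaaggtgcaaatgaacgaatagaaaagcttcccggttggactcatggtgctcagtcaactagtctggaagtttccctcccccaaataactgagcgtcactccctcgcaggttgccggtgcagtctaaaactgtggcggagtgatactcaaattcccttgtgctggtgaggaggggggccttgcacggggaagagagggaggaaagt
COL4A6 (chrX:108439459-108439708, minus strand): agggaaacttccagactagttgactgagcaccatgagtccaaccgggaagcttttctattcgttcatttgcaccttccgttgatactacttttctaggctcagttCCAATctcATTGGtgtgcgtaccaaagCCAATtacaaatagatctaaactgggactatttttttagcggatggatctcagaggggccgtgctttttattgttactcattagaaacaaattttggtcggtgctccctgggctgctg
COL4A1 (chr13:110307158-110307407, minus strand): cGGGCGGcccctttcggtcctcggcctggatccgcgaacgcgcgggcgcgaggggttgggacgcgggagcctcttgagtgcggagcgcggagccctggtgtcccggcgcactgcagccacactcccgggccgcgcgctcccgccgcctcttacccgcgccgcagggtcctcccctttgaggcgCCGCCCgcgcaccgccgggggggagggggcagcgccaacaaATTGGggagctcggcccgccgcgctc
COL4A2 (chr13:110307034-110307283, plus strand): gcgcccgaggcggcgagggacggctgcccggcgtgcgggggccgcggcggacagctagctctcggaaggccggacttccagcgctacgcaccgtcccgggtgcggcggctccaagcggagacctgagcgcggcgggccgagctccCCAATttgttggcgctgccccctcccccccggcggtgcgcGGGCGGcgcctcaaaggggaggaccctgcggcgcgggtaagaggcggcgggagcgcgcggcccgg
The starts of COL4A5 and COL4A6 lie 380 bases apart, and their windows share 121 bases with 2 CCAAT matches. Those of COL4A1 and COL4A2 lie 127 bases apart, and their windows share 126 bases with 1 CCAAT and 1 GGGCGG match. The TATA motif is not in the 4 windows. Of 35116 promoter windows of the same length, 32.01% held the CCAAT box, 42.64% the GC box and 10.72% the TATA box. Among the 32 of 44 collagen rows with a promoter in the table, 9, 18 and 5 held them. A match describes the letters only, and the deposited counts carry no coordinates.

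COL4A5 and COL4A6, which form the network chains α5 and α6, rose together at both steps in both genotypes. COL4A6 stood at 33.3, 16.7 and 32.9 CPM in LIS1+/+ hESC, at 128, 123 and 148 CPM at Day 5 and at 415, 790 and 538 CPM at Day 12. In LIS1+/- it stood at 43.6, 29.8 and 42.9 CPM in hESC, at 160, 240 and 155 CPM at Day 5 and at 823, 751 and 676 CPM at Day 12. No stage overlapped with another within a genotype, while the genotypes overlapped in hESC and at Day 12 and lay apart at Day 5. Across the whole course COL4A6 rose 20.7-fold in LIS1+/+ (log2 4.37 ± 0.27 SE, adjusted p = 2.11e-12) and 19.4-fold in LIS1+/- (4.28 ± 0.26, adjusted p = 1.32e-12). COL4A5 stood at 27.1, 28.7 and 32.3 CPM in LIS1+/+ hESC, at 109, 115 and 154 CPM at Day 5 and at 171, 262 and 226 CPM at Day 12. In LIS1+/- the COL4A5 values were 42.9, 57.3 and 52.3 CPM, then 116, 120 and 131 CPM, then 340, 261 and 270 CPM. Its rise from hESC to Day 12 was 7.49-fold in LIS1+/+ (2.91 ± 0.20, adjusted p = 7.38e-12) and 5.67-fold in LIS1+/- (2.50 ± 0.19, adjusted p = 2.8e-11). All 3 LIS1+/- hESC libraries lay above the LIS1+/+ ones for COL4A5, but the difference of 0.80 ± 0.21 did not pass (adjusted p = 0.0801). At Day 12 the genotype differences were 0.40 for COL4A5 (95% interval 0.02 to 0.78, adjusted p = 0.33) and 0.37 for COL4A6 (-0.11 to 0.84, adjusted p = 0.493).

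COL4A1 and COL4A2, the chains of the most widespread type IV molecule, did not move together. COL4A1 stood at 222, 210 and 247 CPM in LIS1+/+ hESC, at 87.3, 90.8 and 88.4 CPM at Day 5 and at 62.7, 59.1 and 54.5 CPM at Day 12. In LIS1+/- it went from 230, 282 and 266 CPM to 54.9, 68.4 and 71.1 CPM and then 39.0, 45.5 and 40.2 CPM. Every stage lay below the one before it in both genotypes, and the fall from hESC to Day 12 was 3.85-fold in LIS1+/+ (log2 -1.95 ± 0.16, adjusted p = 1.76e-10) and 6.22-fold in LIS1+/- (-2.64 ± 0.16, adjusted p = 5.52e-13). COL4A2 stayed between 91.2 and 164 CPM in all 18 libraries and passed in none of the 12 comparisons. Its change from hESC to Day 12 was 0.13 in LIS1+/+ (95% interval -0.26 to 0.53) and -0.30 in LIS1+/- (-0.68 to 0.09), intervals that do not reach those of COL4A1 (-2.30 to -1.59 and -2.99 to -2.28). LIS1+/- organoids had less COL4A1 without overlap at Day 5 and at Day 12, but neither difference passed (-0.45 ± 0.15, adjusted p = 0.171, and -0.49 ± 0.17, adjusted p = 0.169). The third pair, COL4A3 and COL4A4, whose starts lie 419 bases apart, had no count and 4 counts over all libraries.

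**Figure D2:**
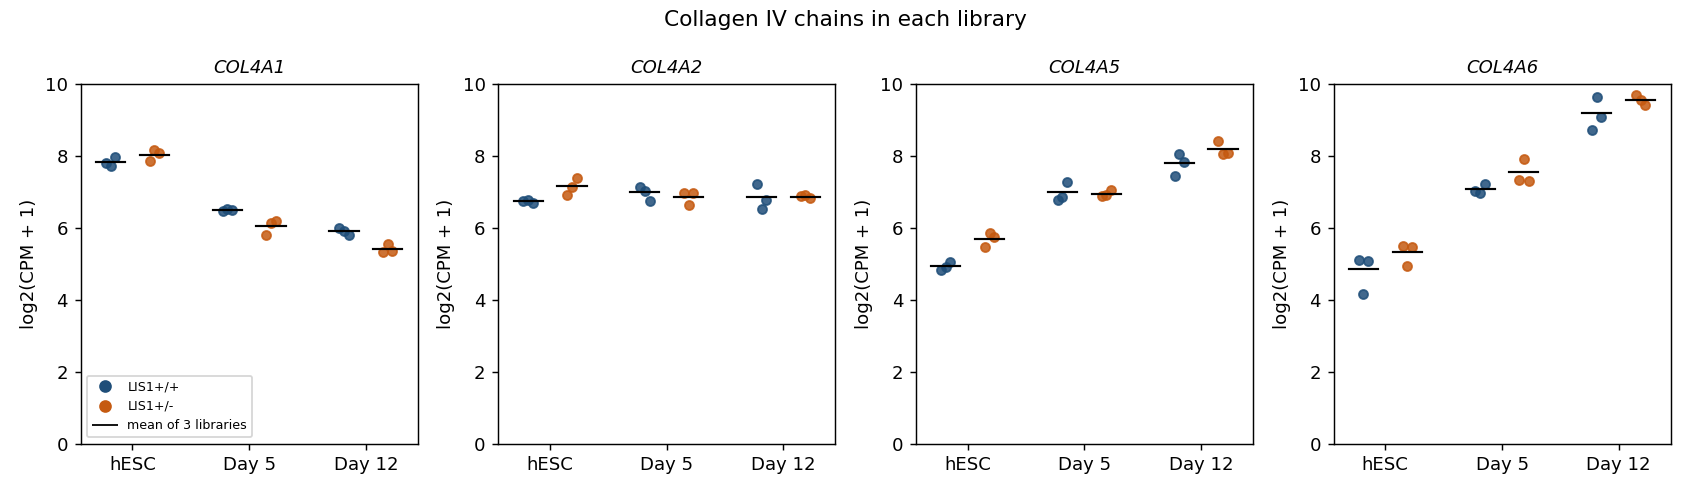
Levels of the 4 measured type IV collagen genes as log2(CPM + 1) in each library, by stage, with LIS1+/+ in blue, LIS1+/- in orange and a line at the mean of 3 libraries. COL4A5 and COL4A6 rise from hESC to Day 12 while COL4A1 falls and COL4A2 stays between 91.2 and 164 CPM.

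COL18A1, whose product is a basement membrane collagen that carries heparan sulfate and contains endostatin, fell once and then held its level. It stood at 768, 771 and 613 CPM in LIS1+/+ hESC, at 221, 254 and 235 CPM at Day 5 and at 193, 212 and 295 CPM at Day 12. The LIS1+/- values were 850, 895 and 936 CPM, then 252, 171 and 253 CPM, then 266, 273 and 248 CPM. At the first step it fell by 1.60 ± 0.17 on the log2 scale in LIS1+/+ (adjusted p = 1.93e-08) and by 1.99 ± 0.17 in LIS1+/- (adjusted p = 4.11e-10). From Day 5 to Day 12 the change was -0.02 in LIS1+/+ (95% interval -0.38 to 0.35) and 0.22 in LIS1+/- (-0.14 to 0.58). No basement membrane collagen passed in a genotype comparison, beside 0.491%, 1.95% and 1.4% of all genes in hESC, at Day 5 and at Day 12. Over the course from hESC to Day 12, 2 of the 5 tested ones rose and 2 fell in each genotype. Of all genes 53.1% changed in LIS1+/+ and 52.1% in LIS1+/-. The related COL15A1 had 12 counts in all libraries together.

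Among the fibrillar collagens, types I and III fell steeply from hESC to Day 5 and, except for COL3A1 in LIS1+/-, rose again by Day 12, whereas type II rose early and stayed high. COL1A1 and COL1A2 encode the chains of type I collagen, the main collagen of bone, skin and tendon. COL1A1 stood at 154, 152 and 141 CPM in LIS1+/+ hESC, at 2.89, 5.63 and 4.28 CPM at Day 5 and at 74.3, 16.4 and 45.3 CPM at Day 12. In LIS1+/- it stood at 96.0, 120 and 84.0 CPM, then at 5.98, 1.83 and 4.68 CPM, then at 14.8, 14.2 and 15.1 CPM. Day 5 lay far below hESC in both genotypes, and at Day 12 the LIS1+/+ libraries spread from 16.4 to 74.3 CPM while the LIS1+/- ones lay within 1 CPM of each other. COL1A1 fell 34.4-fold to Day 5 in LIS1+/+ (log2 -5.10 ± 0.38, adjusted p = 3.83e-10) and 23.7-fold in LIS1+/- (-4.56 ± 0.40, adjusted p = 4.21e-09). It then rose 10.4-fold in LIS1+/+ (3.38 ± 0.39, adjusted p = 2.12e-06) and 3.49-fold in LIS1+/- (1.80 ± 0.44, adjusted p = 0.00634).

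COL1A2 stood at 273, 259 and 246 CPM in LIS1+/+ hESC, at 46.1, 49.8 and 54.3 CPM at Day 5 and at 418, 88.7 and 192 CPM at Day 12. The LIS1+/- libraries had 265, 348 and 349 CPM, then 14.6, 20.1 and 17.8 CPM, then 92.1, 68.3 and 72.7 CPM. At Day 5 the genotypes did not overlap, and at Day 12 LIS1+/+ replicate 2 lay inside the LIS1+/- range. The fall to Day 5 was 5.18-fold in LIS1+/+ (log2 -2.37 ± 0.35, adjusted p = 2.43e-05) and 18.3-fold in LIS1+/- (-4.19 ± 0.39, adjusted p = 9.48e-08). From Day 5 to Day 12 COL1A2 rose 4.64-fold in LIS1+/+ (2.82-fold without Day 12 LIS1+/+ replicate 1) and 4.39-fold in LIS1+/- (adjusted p = 0.000177 and 0.000769). At Day 5 it was 2.85-fold lower in LIS1+/- (log2 -1.51 ± 0.38, adjusted p = 0.0477). That call sat at the threshold: without each of the 6 Day 5 libraries in turn the difference was -1.62 to -1.40 and the adjusted p 0.0917 to 0.174. Sums of several marker lists also differed at Day 5 without overlap. Stem cell markers summed to 1026, 1012 and 930 CPM in LIS1+/+ and 508, 612 and 653 CPM in LIS1+/-, with 3 of 6 lower, beside 1.28% of all genes. The neural crest sum was 142 to 169 against 73.6 to 125 CPM with none of 10 passed, and the surface ectoderm sum 437 to 525 against 219 to 319 CPM with 1 of 4 tested genes lower. Cartilage markers summed to 55.9 to 70.7 against 19.8 to 22.8 CPM, with 2 of 2 tested lower. Notochord markers summed to 5.41 to 12.6 against 0.731 to 3.74 CPM, with none of 2 tested passed. The neuron sum went the other way, at 256 to 283 against 291 to 404 CPM, with 1 of 4 tested genes lower. The mesenchyme sum overlapped, at 322 to 332 against 302 to 342 CPM, with 1 of 8 tested genes higher, beside 0.671% of all genes. Of these 8, only 2 had a difference above 0, and their median log2 difference was -0.43. In LIS1+/+ hESC the surface ectoderm and cartilage sums were higher than at Day 5, at 2082 to 2151 and 335 to 416 CPM, as the stem cell sum was. The surface ectoderm and cartilage lists are thus not specific to those cell types. The neural crest and notochord sums in LIS1+/+ hESC were 212 to 243 and 11.4 to 16.8 CPM. The part of these markers in the Day 5 collagen differences was not tested.

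COL3A1, the chain of type III collagen of vessels and loose connective tissue, spread widely between the Day 12 LIS1+/+ libraries. It stood at 27.1, 17.4 and 30.4 CPM in LIS1+/+ hESC, at 0, 0.225 and 2.26 CPM at Day 5 and at 203, 15.1 and 64.2 CPM at Day 12. In LIS1+/- hESC it stood at 48.6, 42.4 and 60.9 CPM, at Day 5 at 1.87, 0.366 and 2.05 CPM and at Day 12 at 5.56, 2.85 and 3.13 CPM. Both genotypes were near zero at Day 5 (11 and 13 counts per group), and every Day 12 LIS1+/+ library lay above every LIS1+/- one. In LIS1+/+ the change from Day 5 to Day 12 was a rise of 6.72 ± 0.91 on the log2 scale (adjusted p = 8.62e-05). Of the 11 Day 5 counts 10 were in replicate 3, without which the rise was 9.14, and without Day 12 replicate 1 it was 5.51. The change in LIS1+/- was 1.25 ± 1.19 and did not pass (adjusted p = 0.528). The difference between these changes was -5.46 ± 1.80 and did not pass (adjusted p = 0.225). Between hESC and Day 12 COL3A1 rose by 1.90 ± 0.66 in LIS1+/+ (adjusted p = 0.0236) and fell by 3.82 ± 0.80 in LIS1+/- (adjusted p = 0.000915). The LIS1+/+ rise did not pass with only the libraries compared (adjusted p = 0.159), without hESC LIS1+/+ replicate 1 (1.96, adjusted p = 0.0559) or 2 (1.70, adjusted p = 0.076), or without Day 12 LIS1+/+ replicate 1 (0.69, adjusted p = 0.279).

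At Day 12 all 3 of these chains were lower in LIS1+/- organoids. COL3A1 was 26.0-fold lower (log2 -4.70 ± 0.80, adjusted p = 0.00642), COL1A1 3.07-fold lower (-1.62 ± 0.36, adjusted p = 0.0179) and COL1A2 3.02-fold lower (-1.59 ± 0.34, adjusted p = 0.0227). Leaving out Day 12 LIS1+/+ replicate 1 reduced all 3 differences: without it COL3A1 was 11.2-fold lower (-3.48, adjusted p = 0.00512), COL1A1 stood at -1.09 (adjusted p = 0.169) and COL1A2 at -0.87 (adjusted p = 0.0746). Neither type I chain passed without Day 12 LIS1+/- replicate 1, 2 or 3 either, with COL1A1 at -1.64 to -1.59 (adjusted p = 0.0651 to 0.0981) and COL1A2 at -1.72 to -1.51 (0.0533 to 0.137). COL3A1 did not pass without LIS1+/- replicate 2 (-4.52, adjusted p = 0.0522) or replicate 3 (-4.59, adjusted p = 0.0719). With only the 6 Day 12 libraries fitted, the differences were -4.70, -1.63 and -1.60 for COL3A1, COL1A1 and COL1A2 and none passed (adjusted p = 0.234, 0.148 and 0.289). The type V chains COL5A1 and COL5A2, which join type I in fibrils, had differences of -0.71 ± 0.32 and -0.87 ± 0.33 and did not pass (adjusted p = 0.342 and 0.24).

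Markers of other cell types moved with these values. The 13 mesenchyme markers summed to 478, 150 and 258 CPM in Day 12 LIS1+/+ and to 125, 147 and 139 CPM in LIS1+/-, with 12 and 10 of them holding a count and FOXC2 at 0 in both. Of the 8 tested mesenchyme markers 3 were lower in LIS1+/- and none higher, beside 1.06% of all genes lower, among them TWIST1, a transcription factor of mesenchyme, at 200, 17.0 and 68.1 against 4.95, 2.28 and 3.42 CPM. The 10 neural crest markers summed to 538, 144 and 308 against 74.8, 84.8 and 83.2 CPM, with 8 of 10 lower in LIS1+/- and all 10 holding a count in LIS1+/+, 9 in LIS1+/-. One of these, SOX10, stood at 87.9, 5.66 and 36.0 against 1.85, 0.569 and 1.42 CPM. The 7 markers of endoderm, liver and yolk sac summed to 501, 23.9 and 78.8 against 23.5, 21.1 and 10.5 CPM, with 7 and 6 holding a count. The 7 endothelium markers summed to 34.9, 7.55 and 11.7 against 6.80, 10.8 and 9.97 CPM, with PECAM1 at 0 in every library. In each of these 4 sums the order of the LIS1+/+ libraries was replicate 1, 3, 2, as it was for COL1A1, COL1A2 and COL3A1. Sums of cartilage (82.1, 34.6 and 80.3 CPM), surface ectoderm (291, 99.4 and 201) and stem cell markers (251, 201 and 204) had that order too. Those of choroid plexus and meninges (383, 438 and 310), neural progenitors (1498, 1740 and 3014), neurons (559, 320 and 567) and notochord (7.11, 0.629 and 7.30) did not. The part of these markers in the collagen differences was not tested, and in bulk RNA fewer cells of a type and less RNA per cell cannot be told apart.

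**Figure D3:**
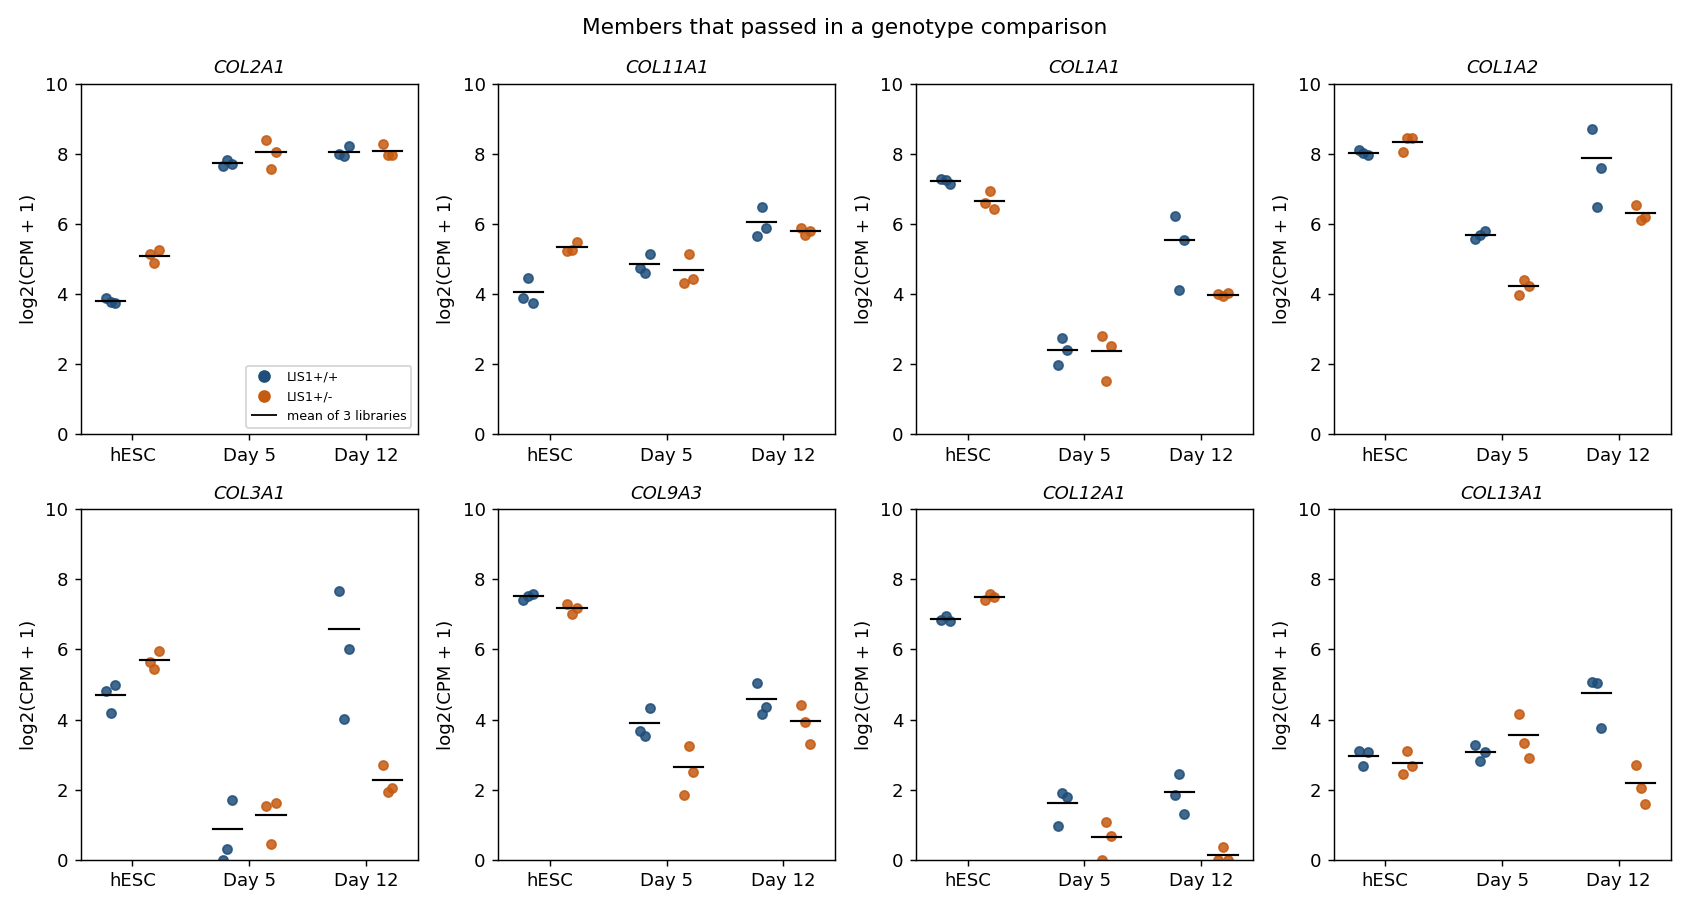
Levels of the 8 collagens that passed in a genotype comparison or a difference of genotype effects, as log2(CPM + 1) in each library by stage, with LIS1+/+ in blue, LIS1+/- in orange and a line at log2 of the mean CPM of 3 libraries plus 1. COL2A1 and COL11A1 differ in hESC, COL1A2 and COL9A3 at Day 5, and COL1A1, COL1A2, COL3A1, COL12A1 and COL13A1 at Day 12, where the LIS1+/+ libraries of COL3A1 spread from 15.1 to 203 CPM.

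COL2A1, the chain of type II collagen of cartilage, notochord and early neuroepithelium, rose at the first step and was the fibrillar collagen with the clearest genotype difference in hESC. It stood at 13.8, 12.7 and 12.4 CPM in LIS1+/+ hESC and at 34.1, 28.4 and 36.8 CPM in LIS1+/- hESC. Day 5 organoids had 201, 224 and 206 CPM in LIS1+/+ and 336, 186 and 264 CPM in LIS1+/-, and Day 12 organoids 251, 242 and 300 CPM and 308, 249 and 247 CPM. In hESC every LIS1+/- library lay above every LIS1+/+ one, and in organoids the genotypes overlapped. The hESC difference was 2.54-fold (log2 1.34 ± 0.24, adjusted p = 0.00526) and passed in all 12 alternatives tried, at 1.25 to 1.45. At the first step COL2A1 rose 16.1-fold in LIS1+/+ (4.01 ± 0.22, adjusted p = 1.12e-13) and 7.90-fold in LIS1+/- (2.98 ± 0.20, adjusted p = 2.74e-12). From Day 5 to Day 12 its change was 0.33 (95% interval -0.05 to 0.71) and 0.03 (-0.35 to 0.40).

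COL11A1 encodes a type XI chain, found in fibrils together with type II collagen. Its levels were 13.8, 20.7 and 12.4 CPM in LIS1+/+ hESC and 36.6, 37.0 and 43.6 CPM in LIS1+/- hESC, with no overlap. Day 5 organoids had 25.8, 23.2 and 34.3 CPM in LIS1+/+ and 18.7, 34.0 and 20.5 CPM in LIS1+/-, and Day 12 organoids 49.1, 87.4 and 58.4 CPM and 58.1, 50.4 and 54.4 CPM, with overlap at both days. The hESC difference was 2.53-fold (log2 1.34 ± 0.28, adjusted p = 0.0223). It did not pass without LIS1+/+ hESC replicate 1 (1.25, adjusted p = 0.139) or 3 (1.21, adjusted p = 0.156), or without LIS1+/- hESC replicate 2 (1.38, adjusted p = 0.0696) or 3 (1.24, adjusted p = 0.145). COL11A2, its partner chain, had 3 and 8 counts in the 2 hESC groups, a ratio of 2.11 with a 95% counting interval of 0.507 to 12.4. Across the whole course COL11A1 rose 4.18-fold in LIS1+/+ (2.06 ± 0.28, adjusted p = 8.68e-07), and in LIS1+/- the change of 0.46 ± 0.25 did not pass (adjusted p = 0.119). The difference between these changes was -1.60 ± 0.37 and did not pass (adjusted p = 0.0548).

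Markers of cell types that make type II collagen were read beside these values. SOX9, the transcription factor that drives COL2A1 in cartilage, stood at 9.05, 8.68 and 4.34 CPM in LIS1+/+ hESC and 13.3, 7.66 and 12.6 CPM in LIS1+/- (0.58 ± 0.37, adjusted p = 0.581). The 5 cartilage rows summed to 335 to 416 CPM in LIS1+/+ and 270 to 316 CPM in LIS1+/-, with 4 of 5 holding a count in each. That sum was lower in LIS1+/- without overlap, and SOX9 made up only a small part of it. The 13 mesenchyme markers summed to 516, 575 and 441 CPM in LIS1+/+ hESC and 636, 665 and 620 CPM in LIS1+/-, without overlap. Of the 8 tested ones none passed, and 5 had a difference above 0. One of these, TWIST1, stood at 22.4, 28.1 and 24.2 against 96.0, 80.7 and 75.4 CPM, without overlap (1.76 ± 0.54, adjusted p = 0.212). The 6 stem cell markers summed to 4877, 4704 and 4965 CPM in LIS1+/+ hESC against 3720, 3839 and 3610 CPM in LIS1+/-, without overlap, and none of the 6 passed. Neural progenitor markers summed to 1083 to 1135 CPM in LIS1+/+ hESC against 1110 to 1312 CPM in LIS1+/-, with overlap. Their median log2 difference was 1.01 over 7 tested genes, with 5 above 0 and none passed. The notochord markers summed to 11.4 to 16.8 against 10.5 to 20.2 CPM in hESC, with all 5 holding a count in each. The part of these markers and of the lower not-unique share in LIS1+/- hESC in the collagen differences was not tested.

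The other tested fibrillar collagens changed with stage and not detectably with genotype. Besides the chains above these were COL27A1, a chain of cartilage fibrils, and the type V chains. COL27A1 rose from 10.7 to 17.6 CPM in LIS1+/+ hESC to 33.8 to 42.2 CPM at Day 5 (log2 1.40 ± 0.29, adjusted p = 0.000351). COL5A2 fell to Day 5 and rose to Day 12 in both genotypes (-1.72 ± 0.35 and 2.13 ± 0.34 in LIS1+/+, adjusted p = 0.00028 and 6.6e-05). COL5A1 did the same at smaller size (-0.87 ± 0.31 and 0.98 ± 0.31 in LIS1+/+, adjusted p = 0.0261 and 0.0224). Neither LIS1+/+ call of COL5A1 held throughout. The first did not pass without replicate 1 or 3 of either group, and the second with only the libraries compared or without Day 5 replicate 1 or 2 or Day 12 replicate 1, with adjusted p up to 0.0989 and 0.308 and values as small as -0.76 and 0.46. The 2 untested fibrillar rows, COL5A3 and COL24A1, never exceeded 5.68 and 3.15 CPM.

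Over the 9 tested fibrillar collagens, 4 rose and 5 fell from hESC to Day 5 in LIS1+/+ (all genes 22.9% and 21.7%) and 6 rose and none fell from Day 5 to Day 12 (all genes 12.7% and 11.7%). In LIS1+/- the counts were 2 and 6 (all genes 22.4% and 21.4%), then 5 and 1 (8.9% and 7.64%). Not all first-step calls held, as given above for COL5A1. In LIS1+/+ the rise of COL11A2, with 3 counts in the hESC group, did not pass in 6 of 12 alternatives. COL11A1 rose at that step in LIS1+/+ and fell in LIS1+/-, and did not pass in 3 and 4 of 12 alternatives. Over the course from hESC to Day 12, 5 rose and 1 fell in LIS1+/+ (median log2 change 0.78), beside 28.1% and 25% of all genes. Of the rises 2 did not pass without some single libraries: COL3A1, as given above, and COL27A1. The latter lost its call without hESC LIS1+/+ replicate 2 or 3 or Day 12 LIS1+/+ replicate 1 or 3, or with only the libraries compared (0.51 to 0.80, adjusted p = 0.0739 to 0.223). In LIS1+/- 1 rose and 5 fell (median -1.04), beside 26.7% and 25.4% of all genes. The difference between the genotypes in these counts was not tested. These comparisons share the hESC and Day 12 libraries with the genotype comparisons. The median genotype difference of the 9 was 0.63 in hESC, -0.04 at Day 5 and -0.87 at Day 12, beside 0.03, 0.01 and -0.01 over all tested genes.

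Fibril-associated collagens, which sit on the surface of fibrils, went different ways. COL9A1, COL9A2 and COL9A3 encode the 3 chains of type IX collagen, a partner of type II. COL9A3 stood at 171, 183 and 192 CPM in LIS1+/+ hESC and 156, 128 and 145 CPM in LIS1+/-. By Day 5 it had fallen to 11.8, 10.6 and 19.2 CPM against 2.62, 8.41 and 4.68 CPM, and at Day 12 it stood at 32.3, 17.0 and 19.5 CPM against 20.4, 14.2 and 8.83 CPM. The genotypes did not overlap at Day 5, where LIS1+/- was 2.64-fold lower (log2 -1.40 ± 0.35, adjusted p = 0.0298). This did not pass without Day 5 LIS1+/+ replicate 1 (-1.50, adjusted p = 0.0503) or 3 (-1.09, adjusted p = 0.188), without LIS1+/- replicate 1 (-1.11, adjusted p = 0.154) or 3 (-1.32, adjusted p = 0.14), or when fitted on Day 5 libraries only (-1.41, adjusted p = 0.13). Of the Day 5 marker sums given above, those of cartilage, stem cells, neural crest, surface ectoderm and notochord were lower in LIS1+/- too. The neuron sum was higher. SOX9 is part of that cartilage sum and 1 of the 2 tested genes of its list. It stood at 43.4, 31.1 and 35.9 against 13.8, 19.4 and 17.8 CPM (-1.11 ± 0.27, adjusted p = 0.0281). The part of these markers in the COL9A3 difference was not tested.

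The partners of COL9A3 moved the opposite way at the first step. In LIS1+/+ COL9A3 fell by 3.71 ± 0.28 on the log2 scale (adjusted p = 7.75e-11), while COL9A1 rose from at most 28.1 CPM to at least 68.3 CPM (1.68 ± 0.24, adjusted p = 1.99e-06). COL9A2 went from 8 counts, all in hESC replicate 1, to 105 counts per group and rose too (2.40 ± 0.62, adjusted p = 0.00252). Without that library the hESC group had no count of COL9A2, and the rise still passed (adjusted p = 3.34e-05). The LIS1+/- cells showed the same directions, with COL9A3 at -4.76 ± 0.33, COL9A1 at 1.93 ± 0.23 and COL9A2 at 2.71 ± 0.55, all of which passed (adjusted p = 7.95e-12, 1.16e-07 and 0.000277).

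COL12A1, a fibril-associated collagen of tendon, ligament and loose connective tissue, was nearly lost after the hESC stage. It stood at 113, 123 and 112 CPM in LIS1+/+ hESC and 169, 192 and 180 CPM in LIS1+/- hESC. At Day 5 it stood at 0.965, 2.70 and 2.48 against 0, 1.10 and 0.585 CPM, and at Day 12 at 2.58, 4.40 and 1.46 against 0, 0.285 and 0 CPM. LIS1+/- thus lay above LIS1+/+ in hESC without overlap, a difference of 0.64 ± 0.22 that did not pass (adjusted p = 0.231), and below it at Day 12. At the first step COL12A1 fell by 5.77 ± 0.31 in LIS1+/+ (adjusted p = 4.99e-14) and by 8.20 ± 0.38 in LIS1+/- (adjusted p = 3.28e-15). Without Day 5 LIS1+/- replicate 2 the latter fell by 8.91. The Day 12 groups held 14 counts and 1 count, a ratio of 23.3 with a 95% counting interval of 3.55 to 985 (fitted log2 -4.08 ± 0.88, adjusted p = 0.0118). It did not pass without Day 12 LIS1+/+ replicate 2 (-3.63, adjusted p = 0.0613), without LIS1+/- replicate 3 (-3.51, adjusted p = 0.109) or with the 6 Day 12 libraries alone (-4.06, adjusted p = 0.168). Without LIS1+/- replicate 2 the LIS1+/- group had no count of COL12A1, and the difference still passed (adjusted p = 0.0333).

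COL13A1, a collagen that spans the cell membrane and sits at cell contacts and the neuromuscular junction, gave the Day 12 genotype difference that held best. It stood at 7.62, 5.34 and 7.45 CPM in LIS1+/+ hESC and 4.42, 7.66 and 5.41 CPM in LIS1+/-. The Day 5 values were 8.68, 6.08 and 7.44 against 16.8, 9.14 and 6.44 CPM. At Day 12 LIS1+/+ stood at 33.0, 32.1 and 12.7 CPM and LIS1+/- at 5.56, 3.13 and 1.99 CPM. The genotypes overlapped in hESC and at Day 5 and were apart at Day 12, 7.75-fold (log2 -2.95 ± 0.45, adjusted p = 0.000474). This passed in all 12 alternatives, at -3.30 to -2.64, with adjusted p up to 0.0145. The order of the LIS1+/+ libraries here differed from that of COL1A1 and of the mesenchyme and neural crest sums, since replicate 2 stood at 32.1 CPM for COL13A1 and lowest of the 3 in those. Replicate 3 was lowest for COL13A1 and for the choroid plexus and meninges sum. That sum stood at 383, 438 and 310 CPM in LIS1+/+ against 337, 319 and 268 CPM in LIS1+/-, with overlap. The part of these markers in the COL13A1 difference was not tested. From Day 5 to Day 12 COL13A1 rose by 1.79 ± 0.39 in LIS1+/+ (adjusted p = 0.00147) and fell by 1.70 ± 0.46 in LIS1+/- (adjusted p = 0.0113). The LIS1+/- fall did not pass without Day 5 LIS1+/- replicate 1 or Day 12 LIS1+/- replicate 2 or 3, with values of -2.04 to -1.23 over the alternatives and adjusted p up to 0.098.

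COL6A1 and COL6A2 encode chains of type VI collagen, a beaded filament found around most cells. COL6A1 stood at 103, 87.5 and 66.4 CPM in LIS1+/+ hESC, at 86.1, 92.6 and 133 CPM at Day 5 and at 242, 105 and 289 CPM at Day 12. In LIS1+/- it stood at 81.4, 78.9 and 72.5 CPM, then 56.1, 40.6 and 89.5 CPM, then 232, 164 and 201 CPM. It rose from hESC to Day 12 by 1.31 ± 0.31 on the log2 scale in LIS1+/+ (adjusted p = 0.00146) and by 1.36 ± 0.31 in LIS1+/- (adjusted p = 0.000991), and the genotypes overlapped at each stage. COL6A2 ranged from 3.74 to 105 CPM, and its genotype difference at Day 12 was -0.53 ± 0.63 (adjusted p = 0.778). COL6A3, the third chain of the common type VI molecule, was below the filter and held 56 counts in Day 12 LIS1+/+ (17.4, 0.629 and 13.6 CPM) against 1 count in LIS1+/-. That is a ratio of 93.2 with a 95% counting interval of 16.1 to 3746, which covers counting error only and not the spread between libraries.

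Another 4 members were singled out after their values were seen. COL8A1, a short-chain network collagen, held 76 and 191 counts in the 2 hESC groups and 1 to 4 counts in each organoid group. From hESC to Day 5 it was lower by a ratio of 94.98 in LIS1+/+ (95% counting interval 25.4 to 798), and the fall passed (adjusted p = 5.39e-08). Its partner COL8A2 had no count at Day 5 in either genotype and 53 counts in Day 12 LIS1+/+ (23.3, 3.77 and 5.35 CPM), at least 44.3-fold higher than at Day 5. The Day 12 LIS1+/- libraries held 9 counts of COL8A2 (0.618, 1.99 and 0.285 CPM), and the genotype difference of -3.32 ± 0.88 did not pass (adjusted p = 0.0592). COL22A1, a fibril-associated collagen of tissue junctions, rose from hESC to Day 12 in both genotypes, 17.5-fold in LIS1+/+ (29.5-fold without hESC LIS1+/+ replicate 3, adjusted p = 1.67e-05 with it) and 7.23-fold in LIS1+/- (adjusted p = 0.000286). COL26A1 stayed between 51.0 and 101 CPM in all 18 libraries and passed in none of the 12 comparisons.

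**Figure D4:**
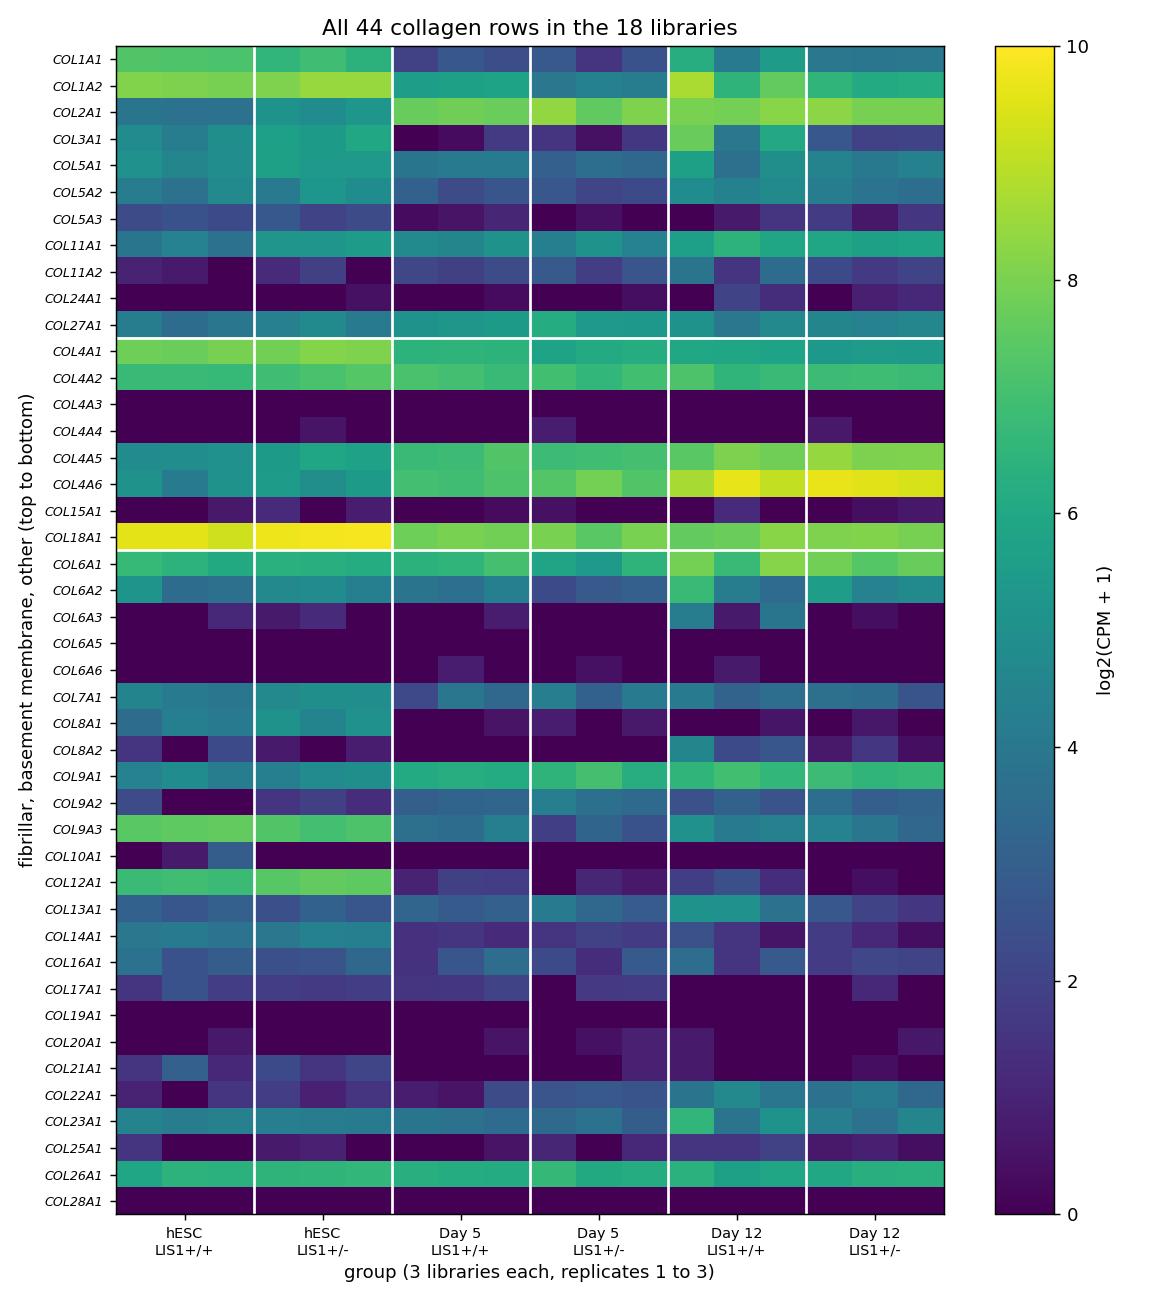
Levels of all 44 collagen rows as log2(CPM + 1), shown by colour from 0 to 10, in the 18 libraries by group (replicates 1 to 3 from left to right), with fibrillar, basement membrane and other collagens from top to bottom. COL1A1, COL1A2, COL4A1, COL9A3, COL12A1 and COL18A1 are bright in hESC, COL2A1, COL4A5, COL4A6 and COL9A1 in organoids, and 4 rows hold no count.

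Over the 15 tested other collagens, 2 rose and 6 fell from hESC to Day 5 in LIS1+/+, a share near the 44.6% of all genes, and 6 rose and none fell from Day 5 to Day 12 (24.5% of all genes). In LIS1+/- 3 rose and 6 fell (43.7% of all genes), then 3 rose and 1 fell (16.5%). No other collagen passed between genotypes in hESC, beside 0.491% of all genes. Of the 15, 1 was lower at Day 5 (COL9A3), beside 1.28% of all genes lower. In LIS1+/- 2 were lower at Day 12 (COL12A1 and COL13A1), beside 1.06% of all genes lower. The highest level among the 10 untested rows was 17.4 CPM, for COL6A3.

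The effect of genotype itself was compared between stages. None of the 29 collagens passed for Day 5 minus hESC, beside 0.573% of all tested genes (0.0819% with a more positive and 0.491% with a more negative effect). At an unadjusted p under 0.05 there were 9. DESeq2 called 3 there, 3 passed without the 3 libraries that stood apart, and 1 passed without Day 5 LIS1+/+ replicate 1, LIS1+/- replicate 1 or LIS1+/- replicate 2. COL11A1, named above, stood at -1.53 ± 0.38 (adjusted p = 0.0646). For Day 12 minus Day 5, 1 collagen passed, with a more negative effect at Day 12, beside 1.06% of all genes (0.671% in that direction, 0.385% in the other). It was COL13A1, at -3.48 ± 0.60 (adjusted p = 0.0025), and it passed in all 18 alternatives, at -3.83 to -3.02. The count itself was 2 without Day 5 LIS1+/+ replicate 3 or Day 12 LIS1+/+ replicate 1 and 3 without Day 12 LIS1+/+ replicate 2.

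For Day 12 minus hESC, 3 collagens passed and all had a more negative effect at Day 12, beside 0.377% of all genes (0.36% in that direction, 0.0164% in the other). COL12A1 went from a difference of 0.64 in hESC to -4.08 at Day 12, a change of -4.72 ± 0.90 (adjusted p = 0.0116), and failed only without Day 12 LIS1+/- replicate 3 (-4.15, adjusted p = 0.0955). COL3A1 went from 1.02 to -4.70, a change of -5.72 ± 1.04 (adjusted p = 0.0257). It did not pass without any 1 of hESC LIS1+/+ replicates 1, 2 and 3, hESC LIS1+/- replicate 3 and Day 12 LIS1+/- replicates 1, 2 and 3 (-5.96 to -5.52, adjusted p = 0.0585 to 0.123), and stood at -4.50 without Day 12 LIS1+/+ replicate 1 and -6.37 without the 3 libraries that stood apart, passing in both. COL2A1 went from 1.34 to 0.01, a change of -1.33 ± 0.30 (adjusted p = 0.0406). It did not pass without any 1 of hESC LIS1+/+ replicates 1, 2 and 3, hESC LIS1+/- replicates 1 and 3, Day 12 LIS1+/+ replicate 3 and Day 12 LIS1+/- replicates 2 and 3 (-1.38 to -1.23, adjusted p = 0.0876 to 0.15). Over the 29 the median change of effect was -1.04, beside -0.03 over all tested genes. The count of 3 ranged from 0 to 6 when each library was left out, with 0 without Day 12 LIS1+/- replicate 3, 1 without hESC LIS1+/+ replicate 1 or 3, hESC LIS1+/- replicate 3 or Day 12 LIS1+/- replicate 2, and 6 without Day 12 LIS1+/+ replicate 2. It was 6 also without the 3 libraries that stood apart.

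**Figure D5:**
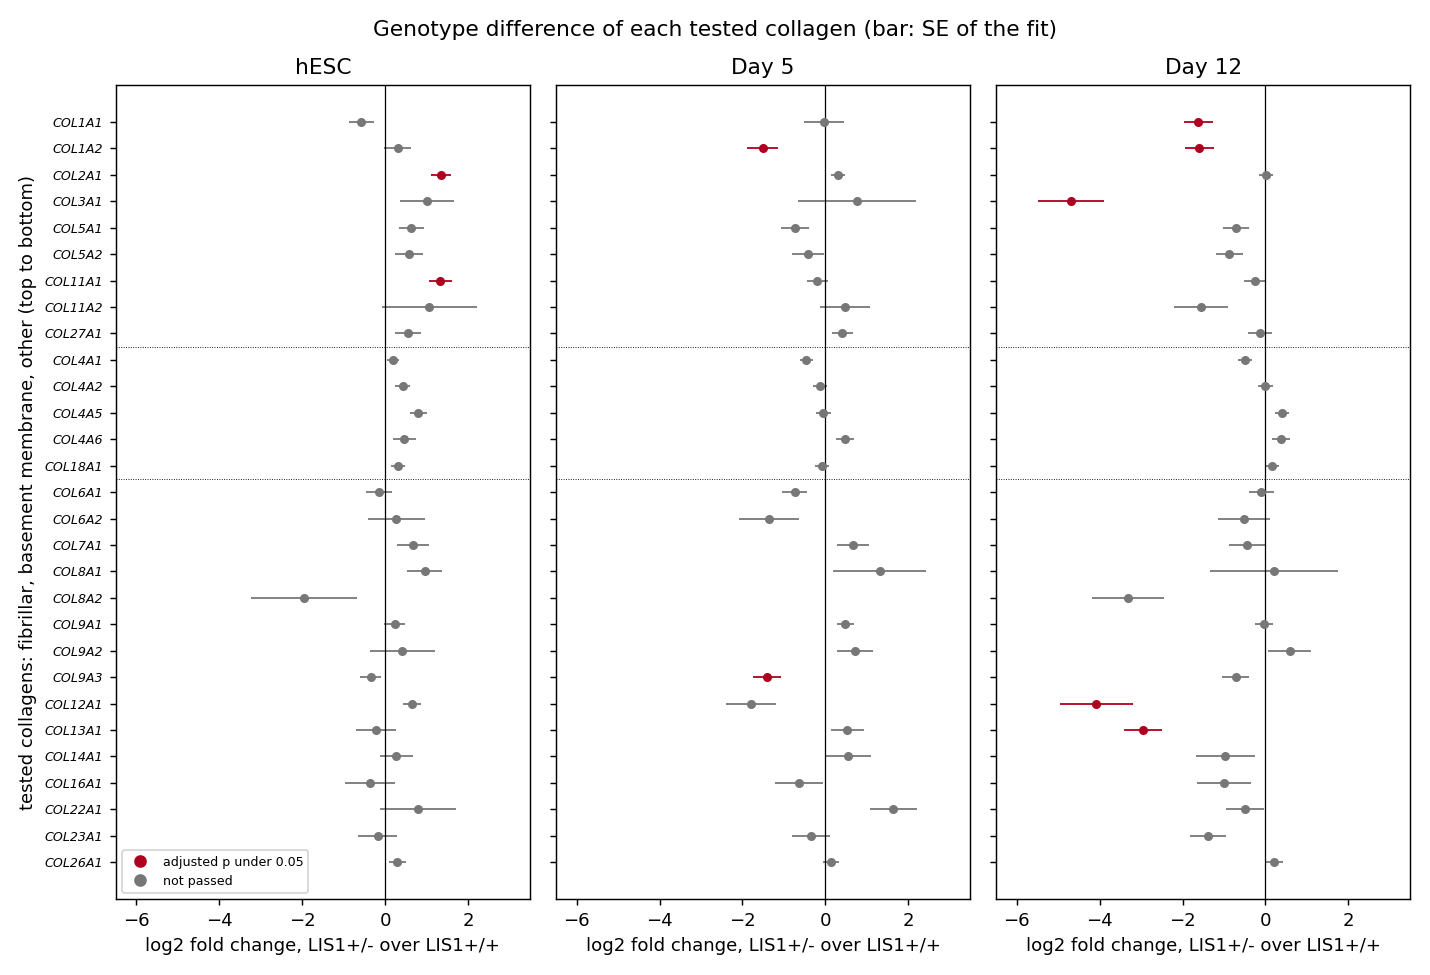
Log2 fold change of LIS1+/- over LIS1+/+ for each of the 29 tested collagens in hESC, at Day 5 and at Day 12, with bars of 1 SE of the fit and red points for adjusted p under 0.05. COL2A1 and COL11A1 lie above 0 in hESC and 5 members lie below 0 at Day 12, and COL8A2 is not drawn at Day 5, where both groups had no count.

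Genes that modify, fold, trim, bind, sense or break down collagen were followed from lists by role. In chain hydroxylation and glycosylation 14 of 15 rows were tested, and from Day 5 to Day 12 in LIS1+/+ 5 rose and 2 fell, beside 12.7% and 11.7% of all genes. P4HA2 and P4HA1, prolyl hydroxylase subunits that stabilise the triple helix, rose by 3.25 ± 0.39 and 2.52 ± 0.32 on the log2 scale (adjusted p = 1.26e-06 and 2.6e-06), and the lysyl hydroxylase PLOD1 by 1.46 ± 0.19 (adjusted p = 3.57e-06). P3H2, a prolyl 3-hydroxylase that acts on type IV collagen, fell by 1.93 ± 0.21 from hESC to Day 5 (adjusted p = 2.1e-08). Of the 14 tested genes 1 was higher in LIS1+/- at Day 5, beside 0.671% of all genes. None passed between genotypes in hESC or at Day 12, beside 0.491% and 1.4% of all genes. The Day 5 gene was COLGALT2, a galactosyltransferase of collagen. It stood at 22.4, 23.7 and 28.0 CPM in Day 5 LIS1+/+ and 59.4, 46.1 and 66.1 CPM in LIS1+/- (1.21 ± 0.21, adjusted p = 0.00139), and it passed in all 12 alternatives.

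Folding and export had 10 of 11 rows tested. None passed in a genotype comparison, beside 0.491%, 1.95% and 1.4% of all genes in hESC, at Day 5 and at Day 12. From hESC to Day 5 in LIS1+/+ 2 rose and 5 fell, beside 22.9% and 21.7% of all genes. The falls included SERPINH1, the collagen chaperone HSP47, by 0.60 ± 0.14 (adjusted p = 0.00127) and SEC24D, a coat protein of the vesicles that carry procollagen, by 1.68 ± 0.31 (adjusted p = 8.86e-05). CREB3L1, a transcription factor that raises collagen secretion, also fell (1.79 ± 0.39, adjusted p = 0.000572), whereas TMEM38B, an ion channel of the endoplasmic reticulum, rose by 1.65 ± 0.40 (adjusted p = 0.0014). SERPINH1 did not follow COL1A1 at the second step: it fell by 0.53 ± 0.14 from Day 5 to Day 12 in LIS1+/+ (adjusted p = 0.00823).

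Propeptide removal and crosslinking had 10 of 14 rows tested, with 1 rising and 4 falling from hESC to Day 5 in LIS1+/+, a share near the 44.6% of all genes. At the second step 7 rose and none fell, beside 12.7% and 11.7% of all genes. PCOLCE, an enhancer of procollagen C-proteinase, followed type I collagen: it fell by 2.88 ± 0.43 and rose by 2.59 ± 0.43 (adjusted p = 8.2e-06 and 0.000138), the rise being 1.75 without Day 12 LIS1+/+ replicate 1. At Day 12 PCOLCE stood at 57.5, 13.8 and 19.0 CPM in LIS1+/+ against 4.95, 7.11 and 7.98 CPM in LIS1+/-, lower by 2.10 ± 0.44 without overlap (adjusted p = 0.0114). The PCOLCE difference at Day 12 did not pass without LIS1+/+ replicate 1 (-1.25, adjusted p = 0.184), without LIS1+/- replicate 1, 2 or 3 (-2.24 to -1.97, adjusted p = 0.0583 to 0.066) or with the Day 12 libraries only (adjusted p = 0.101). The crosslinking enzyme LOXL4 fell and rose (-4.12 ± 0.79 and 3.73 ± 0.81, adjusted p = 0.000128 and 0.00141), BMP1, the C-proteinase itself, rose by 1.49 ± 0.27 at the first step (adjusted p = 6.89e-05) and ADAMTS2, the N-proteinase, by 2.38 ± 0.51 at the second (adjusted p = 0.00115).

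Of the 10 fibril-binding genes 3 were tested, and all 3 rose from Day 5 to Day 12 in LIS1+/+, beside 12.7% of all genes: SPARC, a collagen-binding protein, by 2.95 ± 0.22, the proteoglycan BGN by 2.07 ± 0.41 and fibronectin, FN1, by 0.56 ± 0.19 (adjusted p = 3.23e-10, 0.000557 and 0.029). BGN stood at 41.4, 9.44 and 43.8 CPM in Day 12 LIS1+/+ and 4.33, 4.55 and 7.41 CPM in LIS1+/-, lower by 2.50 ± 0.44 (adjusted p = 0.00238), and of the 12 alternatives only the fit of the Day 12 libraries by themselves did not pass (adjusted p = 0.0569). The second-step rise of FN1 did not pass without any 1 of the Day 5 LIS1+/+ libraries or without Day 12 LIS1+/+ replicate 1 (0.42 to 0.59, adjusted p = 0.0588 to 0.139). SPARC and FN1 did not pass between genotypes at Day 12 (0.18 ± 0.20 and -0.03 ± 0.19, adjusted p = 0.744 and 0.966).

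Receptors had 5 of 10 rows tested. None passed between genotypes, beside 0.491%, 1.95% and 1.4% of all genes in hESC, at Day 5 and at Day 12. In LIS1+/+ the integrin chain ITGA11, which binds fibrillar collagen, fell from 6.67, 8.68 and 7.45 CPM in hESC to 1 count at Day 5, while the collagen uptake receptor MRC2 rose by 1.57 ± 0.29 (adjusted p = 0.000144). From Day 5 to Day 12 the integrin chain ITGA2 rose by 2.72 ± 0.47 and the receptor kinase DDR1 by 0.74 ± 0.17 (adjusted p = 0.000152 and 0.00191).

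Breakdown had 6 of 11 rows tested. MMP14, a membrane-bound protease that cleaves fibrillar collagen, fell by 3.40 ± 0.39 and rose by 2.42 ± 0.41 in LIS1+/+ (adjusted p = 1.05e-07 and 0.000108), the rise being 1.65 without Day 12 LIS1+/+ replicate 1. At Day 12 MMP14 stood at 40.7, 7.55 and 17.0 CPM against 7.42, 6.54 and 7.98 CPM, lower in LIS1+/- by 1.56 ± 0.40 with overlap (adjusted p = 0.0468). Without Day 12 LIS1+/+ replicate 1 the MMP14 difference was -0.78 (adjusted p = 0.465), and without LIS1+/- replicate 1, 2 or 3 it was -1.64 to -1.47 (adjusted p = 0.114 to 0.174). Neither the replicate block (-1.44, adjusted p = 0.0534) nor the Day 12 libraries only (-1.57, adjusted p = 0.225) gave an MMP14 call. TIMP3, an inhibitor of such proteases held in the matrix, stood at 9.05, 16.7 and 6.21 CPM in LIS1+/+ hESC and 20.2, 28.4 and 38.6 CPM in LIS1+/-, higher by 1.49 ± 0.35 (adjusted p = 0.048). That call did not pass with LIS1+/+ replicate 1 or 3 or LIS1+/- replicate 2 or 3 removed (1.22 to 1.51, adjusted p = 0.142 to 0.327) or without the 3 libraries that stood apart (1.24, adjusted p = 0.0842). With DESeq2 size factors it did not pass either (1.47, adjusted p = 0.0553). TIMP3 rose by 2.23 ± 0.33 from Day 5 to Day 12 in LIS1+/+ (adjusted p = 1.91e-05). The inhibitors TIMP2 and TIMP1 changed by 0.65 ± 0.17 and -0.94 ± 0.24 at that step (adjusted p = 0.00698 and 0.00639). For Day 12 PCOLCE, BGN and MMP14 the mesenchyme and neural crest sums given above moved in the same direction, and their part was not tested.

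Differences of genotype effect passed for few genes of these lists. LOXL2, a crosslinking enzyme, passed for Day 5 minus hESC (-1.32 ± 0.31, adjusted p = 0.0467), and COLGALT2 for Day 12 minus Day 5 (-1.48 ± 0.30, adjusted p = 0.0123). For Day 12 minus hESC PCOLCE (-2.58 ± 0.58, adjusted p = 0.046) and TIMP3 (-2.21 ± 0.47, adjusted p = 0.0271) passed, with effects above 0 in hESC and below 0 at Day 12. COLGALT2 passed in all 18 alternatives. LOXL2 did not pass without any 1 of the libraries except hESC LIS1+/- replicate 2 (-1.41 to -0.998, adjusted p = 0.0556 to 0.228), nor without the 3 that stood apart (adjusted p = 0.0526). DESeq2 size factors (adjusted p = 0.0523) and the replicate block (adjusted p = 0.052) ended the LOXL2 call too. PCOLCE did not pass without any 1 of the hESC libraries, Day 12 LIS1+/+ replicate 1 or the Day 12 LIS1+/- libraries (-2.83 to -1.74, adjusted p = 0.0682 to 0.176). Neither the replicate block (-2.51, adjusted p = 0.0563) nor only the libraries compared (-2.54, adjusted p = 0.0672) gave a PCOLCE call. TIMP3 did not pass without hESC LIS1+/+ replicate 1 or 3, hESC LIS1+/- replicate 2 or 3 or any 1 of the Day 12 LIS1+/- libraries (-2.23 to -1.94, adjusted p = 0.0563 to 0.146).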

How the data were processed

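Bulk MARS-seq counts from 18 libraries were used. The deposited tables hold raw counts per gene symbol, with no normalization, as their whole-number values and closing rows show. Cutadapt, STAR and DESeq2 are listed without versions in the submitters' processing notes, as are the builds GRCh37 and hg38 without a role. Nothing read here says whether the authors collapsed molecular identifiers or counted by strand. The 5 closing rows that name no gene, 49.2% to 70.6% of a library, were left out.

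A filter on low counts (filterByExpr, 6 groups) left 12215 of 26485 genes. After TMM scaling, edgeR 4.0.16 under R 4.3.3 gave two-sided quasi-likelihood tests with robust fitting. One model held all 18 libraries and had 12 residual degrees of freedom, and p-values were adjusted by Benjamini-Hochberg over all tested genes. There were 12 comparisons. CPM uses TMM library sizes. Errors, called the SE of the fit, are the absolute log2 fold change over the square root of the test's F value. The 95% intervals use them with 12 degrees of freedom. Both are approximate and may be too narrow where counts are few. Where a group had no count, its fold is a bound from a floor of 3 counts over the group, and groups with 1 to 3 counts get the ratio of pooled counts with a 95% counting interval. The counting intervals and floors cover counting error only, while the SE of the fit and its 95% intervals include the spread between libraries. The code was tested on simulated data.

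Collagens were named in each library if they passed in a genotype comparison or a difference of effects, or were among the 8 with the largest mean CPM, with their partner chains, and up to 4 genes per pathway list by smallest adjusted p. The members, lists, tests and alternatives were chosen with earlier results of these data known. Alternatives were DESeq2 size factors, no filter beyond 1 count, DESeq2 1.42.0, only those libraries that enter a comparison, a replicate block, each library left out, and the 3 libraries that stood apart left out together. The GC check read the final 500 bases of each transcript in GENCODE 29. Figures used Matplotlib 3.10.9.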

Additional observations from a re-analysis of the deposited data

Results flagged for a closer look

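The size of the genotype effect (log2 fold change of LIS1+/- over LIS1+/+) differed between stages for 4 collagens, by edgeR's test of the difference itself. COL13A1 differed between Day 12 and Day 5 by -3.48, from 0.53 to -2.95. Between Day 12 and hESC COL12A1 differed by -4.72, from 0.64 to -4.08, and COL3A1 by -5.72, from 1.02 to -4.70. COL2A1 differed by -1.33, from 1.34 in hESC to 0.01 at Day 12.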

How the results depend on the processing

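Over the 12 comparisons, 123 collagen results passed, and in 1356 of their 1500 alternatives they passed again, in 144 they did not and in 0 the direction reversed. Most of these results were steps between stages, and genotype calls were lost more often. Of 12 alternatives each, the hESC calls of COL11A1 and COL2A1 were lost in 4 and 0. The Day 5 calls of COL1A2 and COL9A3 were lost in 7 and 5. The Day 12 calls of COL12A1, COL3A1, COL1A1, COL1A2 and COL13A1 were lost in 3, 3, 5, 5 and 0. Of 18 alternatives each, the differences of effect of COL2A1, COL3A1, COL12A1 and COL13A1 were lost in 8, 8, 1 and 0. For the genes outside the collagens that the text names, 47 results passed again in 496 of 588 alternatives, did not in 92 and reversed in 0. Counts of collagens that passed are given in the order hESC, Day 5 and Day 12 for the genotype and Day 5 minus hESC, Day 12 minus Day 5 and Day 12 minus hESC for the differences of effect. They were 2, 2 and 5, and 0, 1 and 3. With no filter they were 4, 4 and 8, and 4, 3 and 6. With DESeq2 they were 4, 3 and 6, and 3, 2 and 5. With only the libraries compared they were 4, 1 and 1, and 1, 1 and 2. Without the 3 libraries that stood apart they were 2, 2 and 9, and 3, 3 and 6. With DESeq2 size factors all 6 stayed as they were. Leaving out each library gave 1 to 2, 0 to 1 and 1 to 7, and 0 to 1, 1 to 3 and 0 to 6. Counts for the steps ranged from 16 to 21 for hESC to Day 5 and 12 to 15 for Day 5 to Day 12 in LIS1+/+, and from 18 to 20 and 9 to 12 in LIS1+/-. From hESC to Day 12 they ranged from 16 to 21 and 18 to 19. The cause of these moves was not tested. Replicate numbers come from the sample titles, and the names of the 3 LIS1+/- hESC tables all carry the number 1, so the numbers of that group are in doubt. Whether replicate numbers pair the libraries could not be settled, partly because of that doubt. The 45 same-numbered pairs of deviations correlated at -0.185 to 0.272, 3 of them over 0.1. Of the 18 libraries, 9 correlated best with their own number in the other genotype. With the replicate block the counts were 2, 1 and 5, and 0, 1 and 4, and the Day 5 difference of COL1A2 had an adjusted p of 0.0588. Members with few counts, such as COL12A1 at Day 12 (14 counts and 1 count), are limited by depth.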

Other observations

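Rows next to the collagens in name were also read. COL6A4P2, a pseudogene related to the type VI chains, held 162 counts over all libraries, with 13.6, 11.3 and 7.79 CPM in Day 12 LIS1+/+ and 8.66, 5.41 and 5.13 CPM in Day 12 LIS1+/-. The rows COL6A4P1, COL18A1-AS1, COL18A1-AS2 and COL4A2-AS1 held no count in any library. The type X chain COL10A1, a product of cartilage in late stages, held 12 counts, 11 of them in LIS1+/+ hESC replicate 3, one of the libraries that stood apart, and 1 in replicate 2.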
